A study of Mus musculus with 2 samples.

Results

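The genes described here encode the membrane carriers that move sodium, protons, chloride, bicarbonate, sulfate, phosphate, calcium and zinc across epithelial membranes, read in small intestinal epithelium from 1 control mouse and 1 mouse lacking Myh9. They were chosen by symbol alone, as every row of the expression table whose name belongs to the Slc4, Slc8, Slc9, Slc12, Slc20, Slc26, Slc30, Slc34 or Slc39 family. The rule itself uses no expression value. The rule took 48 of 12631 rows. They carry 47 different symbols, because Slc26a6 stands on 2 rows. The rule also took 3 rows that are no carriers: Slc9a3r1 and Slc9a3r2, which encode PDZ scaffold proteins of the brush border, and Slc4a1ap, which encodes an adaptor protein. Of 77 protein-coding mouse genes whose symbols match the rule, 30 had no row and are not analysed here, among them Slc34a1, Slc8a1, Slc8a2, Slc8a3, Slc4a1, Slc26a4 and Slc30a8.

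Both animals were C57BL/6 mice of 8 weeks. Tamoxifen was given on 5 days to the wild-type control and to the Myh9-/- animal alike, and epithelial RNA was taken at day 5. Epithelium was shaken off pieces of the opened intestine in cold EDTA and dithiothreitol. Myh9 encodes the motor subunit of non-muscle myosin IIA, which contracts the actin of the cell cortex and of junctions. Which Cre line drove the deletion, and in which cells, the labels do not say. Myh9 was 99.5 in control and 13.6 in knockout epithelium, 6.89-fold lower, which goes with the labels. All 8 markers of small intestinal epithelium that were looked up had rows in the table. Of these, 6 lay within 1.4-fold. Krt18 was higher, at 250 in control and 488 in knockout epithelium, and Cdx2 was lower, at 82.9 and 53.8.

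Each group held 1 sample. No value has a replicate error, no test was possible, and every difference is one between 2 libraries. A level here is the deposited value less the 1 that had been added to it. Where a pair of levels stands without labels, the control comes first. Neither the unit of the levels nor the sequencing depth is known. A fold divides 1 level by the other after adding 1 back to both, which understates differences of low genes. A gene was included when its level was at least 1 in either library and was called higher or lower at 1.4-fold, the size the submitters state. In this bulk tissue, fewer cells of a type and less RNA per cell cannot be told apart.

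Enterocytes absorb sodium mainly by exchanging it for protons at the brush border, paired with an exchange of chloride for bicarbonate. Crypt cells secrete chloride that enters at their basal side with sodium and potassium. Phosphate enters with sodium through carriers of the Slc34 and Slc20 families. Zinc is handled by carriers of opposite polarity: Slc39 proteins (ZIP) bring zinc into the cytosol from outside or from vesicles, and Slc30 proteins (ZnT) take it out of the cytosol into vesicles or out of the cell. The zinc sensor MTF-1 binds metal response elements in promoters and switches on metallothionein genes and, in mouse, Slc30a1.

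The stretches that lie before 4 of these genes are shown because they belong to zinc, phosphate and sodium carriers described below: the zinc exporter known as an MTF-1 target, a zinc importer lower in the knockout, and a phosphate carrier and a sodium carrier higher in it. Each is the part of the 250 bases before the RefSeq start (GRCm38.p6, the assembly of mm10) that overlaps no annotated exon, 5′ to 3′ on the gene's strand. In the first 3, capitals mark the letters of a metal response element, searched as TGCACNC or TGCGCNC on both strands. In Slc9a3, capitals mark only GC boxes, searched as GGGCGG on both strands, the letters bound by Sp1-type factors.
Slc30a1, chr1:191906531-191906766, plus strand: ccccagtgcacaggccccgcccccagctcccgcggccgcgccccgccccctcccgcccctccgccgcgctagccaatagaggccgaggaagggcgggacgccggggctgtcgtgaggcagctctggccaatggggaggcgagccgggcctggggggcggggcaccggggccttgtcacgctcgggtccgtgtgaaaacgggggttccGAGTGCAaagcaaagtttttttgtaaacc
Slc39a5, chr10:128401230-128401394, minus strand: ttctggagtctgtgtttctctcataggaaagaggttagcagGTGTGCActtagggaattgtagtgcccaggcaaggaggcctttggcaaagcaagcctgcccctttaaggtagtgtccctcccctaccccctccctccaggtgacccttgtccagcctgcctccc
Slc34a2, chr5:53049189-53049351, plus strand: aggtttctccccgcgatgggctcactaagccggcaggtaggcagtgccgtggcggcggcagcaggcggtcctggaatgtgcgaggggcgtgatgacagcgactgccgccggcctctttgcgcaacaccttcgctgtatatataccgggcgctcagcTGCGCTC
Slc9a3, chr13:74121163-74121412, plus strand: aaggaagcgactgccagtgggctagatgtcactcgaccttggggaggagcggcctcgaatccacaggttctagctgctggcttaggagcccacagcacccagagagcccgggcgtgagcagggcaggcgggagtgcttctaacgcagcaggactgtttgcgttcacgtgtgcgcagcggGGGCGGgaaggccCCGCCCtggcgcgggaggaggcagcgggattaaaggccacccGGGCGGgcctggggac

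The RefSeq start used for Slc34a2 lies inside the longer GENCODE gene. Slc39a5 has 2 RefSeq starts, and the more upstream one is shown; the window of the other held no metal response element match and 1 GC box. The motifs do not separate these genes. Over the full 250 bases, Slc30a1 held 1 metal response element match and 5 GC boxes, and Slc9a3 held 1 match, not capitalised, and 3 GC boxes. Slc34a2 held 2 matches, 1 of them outside the printed stretch, and the Slc39a5 window shown held 1, both without a GC box. A metal response element match was found in 21.4% of 32851 RefSeq windows of all genes and a GC box in 32.7%. The transporter genes had 45 windows from 34 genes, some from the same gene, with a metal response element match in 17 (37.8%) and a GC box in 26 (57.8%). In the zinc families a metal response element match was found in 10 of 21 windows (47.6%) and a GC box in 14 (66.7%). A match is a run of letters, not a shown binding site.

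Of the 48 rows, 47 passed the level filter. The row that did not was Slc9a3r2, at 0.979 for the control and 0.996 for the knockout. Among the 47, 10 were higher in the knockout (21.3%) and 7 were lower (14.9%), where over all 12152 included genes 15.9% were higher and 16.3% were lower. At 2-fold, 2 members were higher (Slc4a11 and Slc4a7) and 1 was lower (Slc39a13), against 4.49% and 4.28% of all genes. The median log2 fold of the members was -0.0015, and that of all genes was -0.0037. The 171 included rows of all other Slc families had a median of -0.0081, with 34 higher and 33 lower. The members' shares thus lay near the background in both directions. Counts by family and by list below stand against the same 15.9% and 16.3%, and each rests on few rows. When the knockout was scaled up 1.08-fold, to equal totals that leave out mitochondrially encoded transcripts and the top 20 genes, the median log2 fold of all genes moved to 0.099 and that of the members to 0.10. All genes then split into 2492 higher and 1552 lower, against 1936 and 1985 as deposited, and the members into 10 higher and 5 lower. Just inside the cutoff lay Slc12a2, 1.39-fold lower, and among the genes described here the nearest past it was Slc39a8, 1.47-fold lower.

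**Figure D1:**
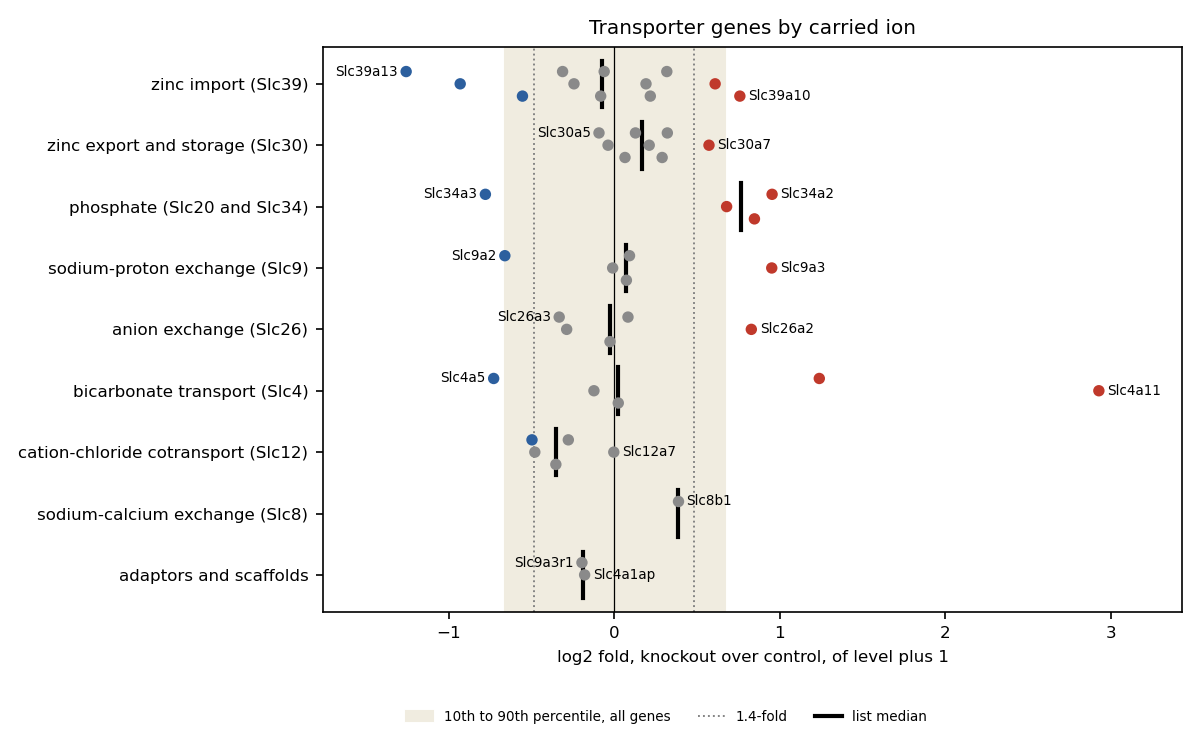
Log2 fold of level plus 1, knockout over control, for each included transporter row, 1 point per row, grouped by carried ion; red points are higher by 1.4-fold, blue points lower, grey points between, black bars the medians of each group and the band the 10th to 90th percentile of all genes. Phosphate carriers have the highest median (0.76). The 5 cation-chloride cotransporter genes lie below 0 as deposited, with Slc12a7 at -0.0015 and above 0 under median scaling and scaling by totals. Slc4a11 stands in the bicarbonate group by its family.

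Phosphate carriers passed the cutoff in all 4 genes with a row, 3 higher and 1 lower, with a median log2 fold of 0.76. Slc34a2, the sodium-phosphate cotransporter NaPi-IIb of the brush border, was 51.3 in control and 100.4 in knockout epithelium, 1.94-fold higher (chr5:53038081-53071664, mm10). Slc20a1, which encodes PiT1, a widely expressed phosphate carrier and retrovirus receptor, was 5.38 and 10.5, 1.80-fold higher. Its relative Slc20a2, which encodes PiT2, was 4.83 and 8.33, 1.60-fold higher. The knockout library was thus the higher one for 3 of the 4 genes.

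Slc34a3, the family member known from kidney, went the other way, at 2.03 and 0.771, 1.71-fold lower. It passed the filter only through the control, which fixed its direction. The summed level of the 4 genes was 63.6 for the control and 120 for the knockout, mostly Slc34a2. Exons of Slc20a1 overlap those of Gm4430 and 9830144P21Rik on the opposite strand, and exons of Slc20a2 overlap those of Smim19. Whether counting used strand is not stated, so reads of overlapping genes, here and below, cannot be told apart.

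In mice, Slc34a2 is known to be most abundant in the ileum, the last part of the small intestine. Markers of intestinal region differed in both directions. Of 9 distal markers with a row, 4 were higher and 3 were lower. Fabp6, the ileal bile acid binding protein gene, was 125 and 741, and Muc3 was 61.0 and 324, whereas Cubn was 25.7 and 4.05 and Osr2 was 38.8 and 12.9. The distal markers summed to 2149 in control and 3035 in knockout epithelium.

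Of 10 proximal markers with a row, 6 were lower and 1 was higher, or 5 and 2 under scaling by totals. Slc40a1 was 4.14 and 0.437 and was included only through the control, which fixed its direction. Lct was 279 and 81.0, and Fabp1 was 3018 and 6049. Their sum was 5387 for the control and 7939 for the knockout, and the difference in Fabp1 alone was larger than that of the sum. Fgf15, Pdx1 and Cybrd1 had no row, and no marker of either list was at 0. The part of regional make-up in the phosphate carriers' difference was not tested.

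The list of phosphate export and hormone genes, which includes growth factor receptor and phosphatase genes, moved both ways. Of 7 with a row, 3 were higher and 1 was lower, and Alpl, Fgfr1 and Klb had no row. Fgfr4, a fibroblast growth factor receptor gene, was 1.74 and 5.08, and Akp3, an intestinal alkaline phosphatase gene, was 2.03 and 4.27. Fgfr3 was 9.36 and 3.18. Xpr1, the known phosphate exporter, was 8.82 and 7.98, within 1.4-fold; it was picked out after its value was seen.

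Sodium-proton exchangers included 1 higher and 1 lower gene of 5. Slc9a3, which encodes NHE3, the main sodium-absorbing exchanger of the villus brush border, was 33.9 in control and 66.5 in knockout epithelium, 1.94-fold higher (chr13:74121457-74169442). Slc9a2, which encodes NHE2, another apical exchanger, was 22.6 and 13.9, 1.58-fold lower (chr1:40680574-40769273). The knockout library was thus higher for one apical exchanger and lower for the other.

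The other 3 exchangers lay within the cutoff. Slc9a8, found at the Golgi and the brush border, was 20.7 and 22.2. The summed level of the 5 genes was 101.0 for the control and 126.7 for the knockout.

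The scaffolds of Slc9a3 were called lower, lay within the cutoff or missed the level filter, and the kinases of this system moved both ways. Slc9a3r1, which encodes the scaffold NHERF1, was 353 in control and 309 in knockout epithelium, within 1.4-fold. Pdzk1, another PDZ scaffold of the brush border, was 90.9 and 54.3, 1.66-fold lower. The scaffold gene Pdzd3 was 18.9 and 13.0, 1.42-fold lower, and was named after its value was seen. Of 11 genes on the list of Slc9a3 and Slc12 regulators, 2 were higher and 3 were lower, or 2 and 2 under scaling by totals. Wnk2, a kinase gene of the family that controls the cation-chloride cotransporters, was 7.17 and 3.09. Stk39, which encodes SPAK, the kinase that phosphorylates Slc12 proteins, was 10.9 and 17.8, and Wnk4 was 2.38 and 4.00.

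Of 9 genes of the sodium pump and the sodium channel, 2 were higher and 2 were lower, or 2 and 1 under scaling by totals. Atp1b3, a beta subunit of the pump, was 12.9 and 20.2, and Fxyd1, included only through the knockout, was 0.325 and 1.26. The channel subunit gene Scnn1a was 4.31 and 2.36, and the kinase gene Sgk1 was 153 and 107. Of 12 absorptive enterocyte markers, 2 were higher and 3 were lower, with a median log2 fold of 0.01.

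**Figure D2:**
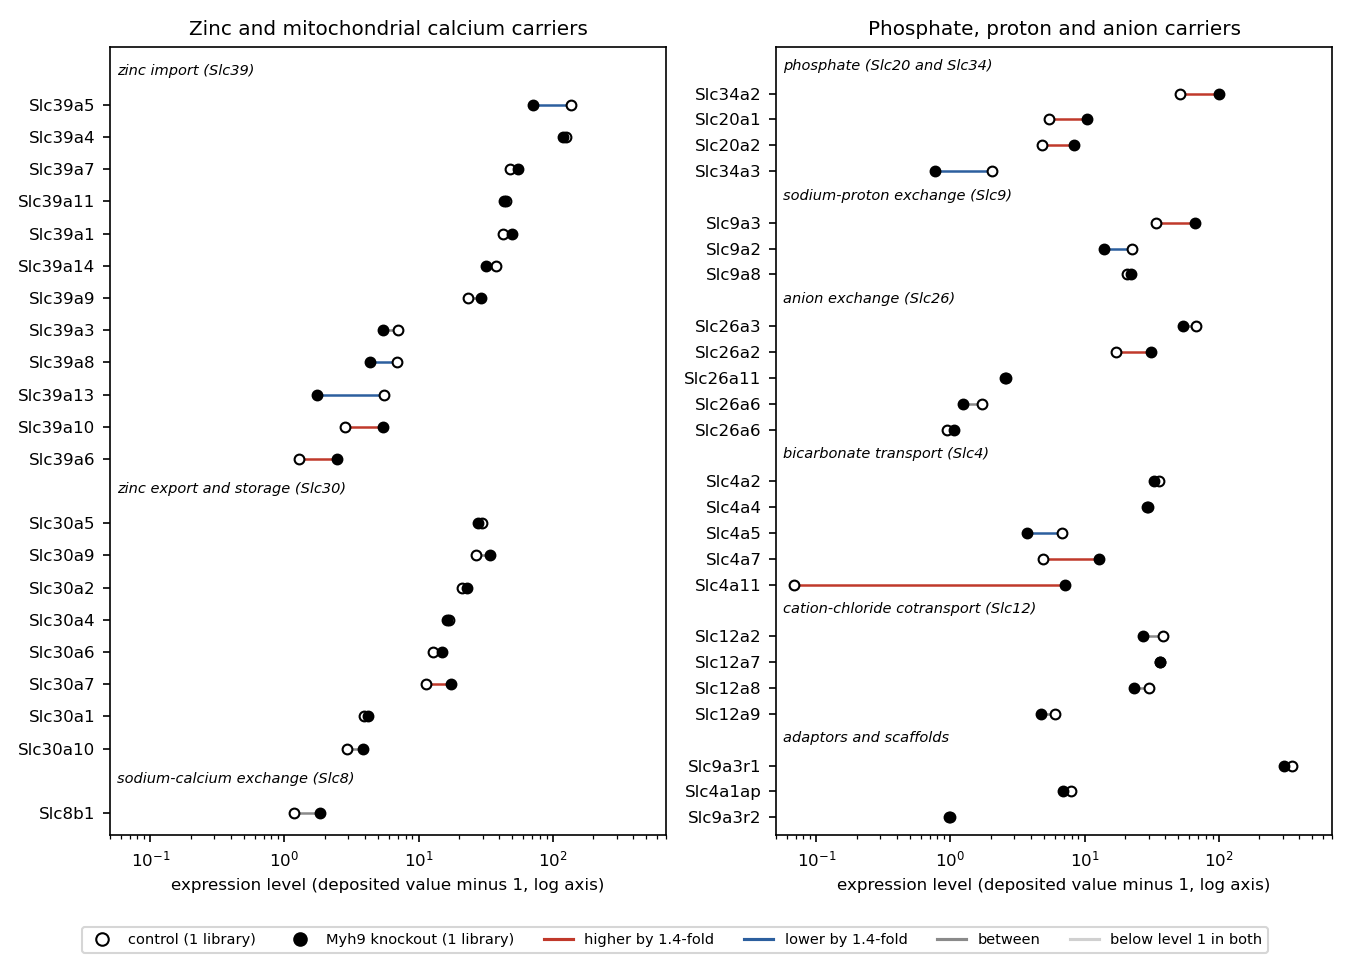
Expression level (deposited value minus 1, log axis) of the transporter rows described here in the control library (open circle) and the Myh9 knockout library (filled circle), joined by a line that is red where the knockout was at least 1.4-fold higher, blue where it was lower and grey otherwise. Slc34a2 and Slc9a3 move right by a similar distance, while Slc39a4 stays in place and Slc39a5 moves left.

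Anion exchangers of the Slc26 family included 1 higher gene and none lower among 5 rows. Slc26a2, a sulfate carrier needed for sulfation of mucins and matrix, was 17.2 for the control and 31.3 for the knockout, 1.78-fold higher. Goblet cell markers, for the cells that make mucin, showed 4 lower genes of 9 (3 under scaling by totals) and none higher, with sums of 16346 and 12002, and their part in the Slc26a2 difference was not tested. Slc26a3, the apical chloride-bicarbonate exchanger that works beside Slc9a3 in salt absorption, was 67.9 and 53.8, 1.26-fold lower and within the cutoff. Slc9a3 and Slc26a3, the paired routes for sodium and chloride, thus differed in opposite directions, and only the Slc9a3 difference passed 1.4-fold.

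Slc26a6, another apical exchanger of chloride, bicarbonate and oxalate, stood on a pair of rows. One row was 1.72 in control and 1.23 in knockout epithelium. The other row was 0.945 and 1.06 and was included only through the knockout. What separates these rows is not stated, so no level for the whole gene is read from either. Slc26a11, another anion carrier, was 2.60 and 2.54.

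The Slc4 family, grouped here as bicarbonate carriers, held the largest difference of the whole set, in a gene that is not a known bicarbonate carrier. Slc4a11, a proton and water carrier best known from the corneal endothelium, was 0.0681 for the control and 7.14 for the knockout, 7.62-fold higher (chr2:130684113-130697519). It passed the filter only through the knockout, which fixed its direction, and its log2 fold was 2.93 with a pseudocount of 1 and 5.43 with 0.1. Slc4a7, the electroneutral sodium-bicarbonate cotransporter NBCn1, was 4.88 and 12.9, 2.36-fold higher (chr14:14702279-14799940). Slc4a5, which encodes the electrogenic cotransporter NBCe2, was 6.79 and 3.70, 1.66-fold lower.

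The other Slc4 carriers with a row, Slc4a4 and Slc4a2, lay within the cutoff. Slc4a4, which encodes NBCe1, was 29.1 in control and 29.7 in knockout epithelium. Slc4a2, the chloride-bicarbonate exchanger AE2, was 35.6 and 32.7. Genes of the carbonic anhydrase family, whose active enzymes make bicarbonate, were higher in 2 of 7 cases and lower in 2. Car12 was 4.10 and 9.84 and Car9 was 38.8 and 58.1, both enzymes of the cell surface, whereas Car4 (173 and 113), also at the surface, and cytosolic Car2 (11.0 and 6.97) were lower.

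The 5 genes of the Slc12 family had a log2 fold below 0 as deposited, and 1 gene passed the cutoff. For Slc12a7 the log2 fold was only -0.0015. It turned above 0 under scaling by totals and when the median log2 fold of all genes was set to 0. Under scaling by totals no Slc12 gene passed the cutoff. Slc12a2, which encodes NKCC1, the basolateral chloride entry path of secreting crypt cells, was 38.4 and 27.2, 1.39-fold lower.

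Slc12a7, Slc12a8 and Slc12a9 also lay within the cutoff. Slc12a8, whose substrate is debated, was 30.0 and 23.3. The orphan member Slc12a9 was 5.98 and 4.76, and Slc12a7, which encodes KCC4, was 36.3 in both libraries. The median log2 fold of the 5 genes was -0.35.

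Slc12a2 is itself counted among markers of crypt-base stem cells. Of the 9 other markers, 5 were lower, 4 lay within the cutoff and none was higher, and their summed level was 736 in control and 188 in knockout epithelium. Olfm4 was 619 and 113, and Gkn3, included only through the control, was 7.31 and 0.881. None of them was listed at 0 in either library. The part of crypt cells in the Slc12a2 difference was not tested.

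The other genes of chloride secretion were mostly similar, with 1 of 12 higher and 1 lower. Ano1, a calcium-activated chloride channel, was 1.01 for the control and 8.60 for the knockout, and Kcnq1, a basolateral potassium channel that sustains secretion, was 58.0 and 23.6. Cftr, the main apical chloride channel, was 18.9 and 17.4, and was named after its value was seen. Of 5 water channel genes, 1 was lower, Aqp1, at 59.3 and 13.6, and none was higher.

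**Figure D3:**
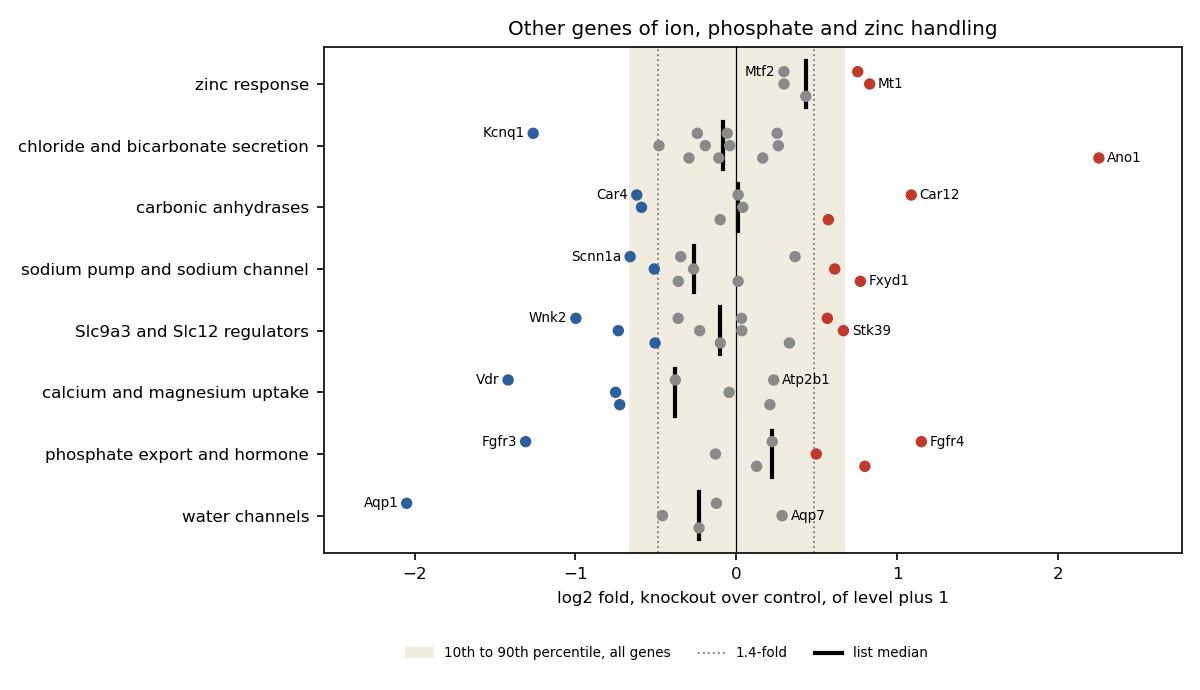
Log2 fold of level plus 1, knockout over control, for genes outside the carrier families that serve the same transport pathways, 1 point per gene; red points are higher by 1.4-fold, blue points lower, grey points between, black bars the list medians and the band the 10th to 90th percentile of all genes. The 5 genes on the zinc response list lie above 0, and 2 of them passed 1.4-fold as deposited (3 under scaling by totals). Of these 5, Mt3 was included only through the knockout, and Mtf2, named after its value was seen, is best known as a Polycomb gene. Aqp1, Vdr and Fgfr3 lie at the low end of their lists.

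Zinc importers of the Slc39 family included 2 higher (16.7%) and 3 lower (25%) genes of 12, against 15.9% and 16.3% of all genes. Slc39a4, which encodes ZIP4, the brush border zinc importer mutated in acrodermatitis enteropathica, was 125 in control and 119 in knockout epithelium, within 1.4-fold (chr15:76612383-76617384). Slc39a5, which encodes ZIP5, an importer of the basolateral membrane, was 136 and 71.1, 1.90-fold lower (chr10:128395931-128401229). The apical importer thus lay within the cutoff, with a log2 fold of -0.08 that became 0.03 under scaling by totals, while the basolateral one was lower in the knockout.

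Slc39a13, which encodes ZIP13, a zinc carrier of intracellular vesicles whose loss causes a connective tissue disorder, had the lowest fold of the set. It was 5.55 for the control and 1.74 for the knockout, 2.39-fold lower (chr2:91061791-91070417), and its exons overlap those of Psmc3 on the opposite strand. Of 6 stromal and endothelial markers, none was lower and 2 were higher, 1 of them (Acta2, 0.748 and 2.51) included only through the knockout. They summed to 40.6 and 39.7, and Cdh5, Myh11 and Pecam1 had no row. The part of stromal cells in the Slc39a13 difference was not tested. Slc39a8, a carrier of zinc and manganese, was 6.85 and 4.35, 1.47-fold lower, and its log2 fold of -0.55 became -0.46 and missed the cutoff under the scaling by totals.

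Slc39a10 and Slc39a6, the closely related importers ZIP10 and ZIP6, were both higher. Slc39a10 was 2.80 in control and 5.44 in knockout epithelium, 1.69-fold higher, and Slc39a6 was 1.27 and 2.47, 1.53-fold higher. ZIP10 is also known from lymphocytes. Among markers of B and plasma cells, 3 of 4 included genes were higher, Igha, Jchain and Igkc, with sums of 230 and 751 over all 6 rows. Igha was 50.4 and 221, and Ms4a1 had no row. Cd79b was 2.48 and 2.59, within the cutoff. Cd79a, at 0.870 and 0.283, and Mzb1, at 0.131 and 0.818, missed the level filter. Igkc, Cd79b, Cd79a and Mzb1 were named after their values were seen. All 9 T cell and intraepithelial lymphocyte markers were lower (8 of 9 passed the cutoff under scaling by totals), with sums of 1061 and 492; Ccl5 was 540 and 228. The part of lymphocytes in the Slc39a10 difference was not tested.

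Besides Slc39a4, the other 6 Slc39 genes not called lay within the cutoff. The endoplasmic reticulum carrier Slc39a7 was 48.1 for the control and 55.1 for the knockout, and the Golgi carrier Slc39a9 was 23.2 and 29.2. Slc39a14, which also carries manganese and iron, was 37.6 and 31.7. At the cell surface, Slc39a1 was 42.8 and 50.0 and Slc39a3 was 7.00 and 5.45. Slc39a11 was 45.2 and 43.3. The 12 genes had a median log2 fold of -0.07, or 0.04 under scaling by totals, and their summed level was 482 in control and 418 in knockout epithelium.

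Zinc exporters and storage carriers of the Slc30 family included 1 higher gene and none lower of 8. Slc30a7, which loads zinc into the early secretory pathway, was 11.4 for the control and 17.5 for the knockout, 1.49-fold higher (chr3:115938973-116007406), with exons that overlap Gm43106 and Gm6649 on the opposite strand. Slc30a5 and Slc30a6, the partner carriers that supply zinc to alkaline phosphatases, were 29.7 and 27.8, and 12.9 and 15.1, in control and knockout. Their client gene Alpi, the main intestinal alkaline phosphatase, was 270 and 295; it was named after its value was seen.

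Slc30a1, the basolateral zinc exporter whose upstream stretch is printed above, was 3.95 in control and 4.18 in knockout epithelium, within the cutoff. The metallothionein genes Mt1 (404 and 719, 1.78-fold higher) and Mt2 (103 and 174, 1.69-fold higher), which bind zinc and are switched on by the same MTF-1 factor, were both higher. Mtf1, which encodes that factor, was 10.7 and 13.4, within the cutoff, and was named after its value was seen. The part of MTF-1 in the metallothionein differences was not tested.

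Slc30a2, which fills Paneth cell granules with zinc, was 21.0 for the control and 23.1 for the knockout. Paneth cell markers were lower in 9 of 10 cases, with sums of 23077 and 11900; Pnliprp2 was 54.8 and 13.2 and Defa26 was 239 and 96.7. Slc30a2 thus lay within the cutoff in a library where these markers were lower.

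The remaining carriers lay within the cutoff. Slc30a4, of endosomes, was 16.8 and 16.3, and Slc30a9, a mitochondrial zinc carrier, was 27.0 and 33.95. Slc30a10, which exports manganese rather than zinc, was 2.95 and 3.83. The group median log2 fold was 0.17.

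The only sodium-calcium exchanger with a row was Slc8b1, which encodes the mitochondrial exchanger NCLX, at 1.17 in control and 1.84 in knockout epithelium, 1.31-fold higher and within the cutoff. Of 7 genes of calcium and magnesium uptake, none was higher and 3 were lower. Vdr, the vitamin D receptor gene, was 171 and 63.5, and S100g, which encodes the calcium-binding protein calbindin of enterocytes, was 7.49 and 4.04. The adaptor gene Slc4a1ap was 7.88 and 6.85.

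**Figure D4:**
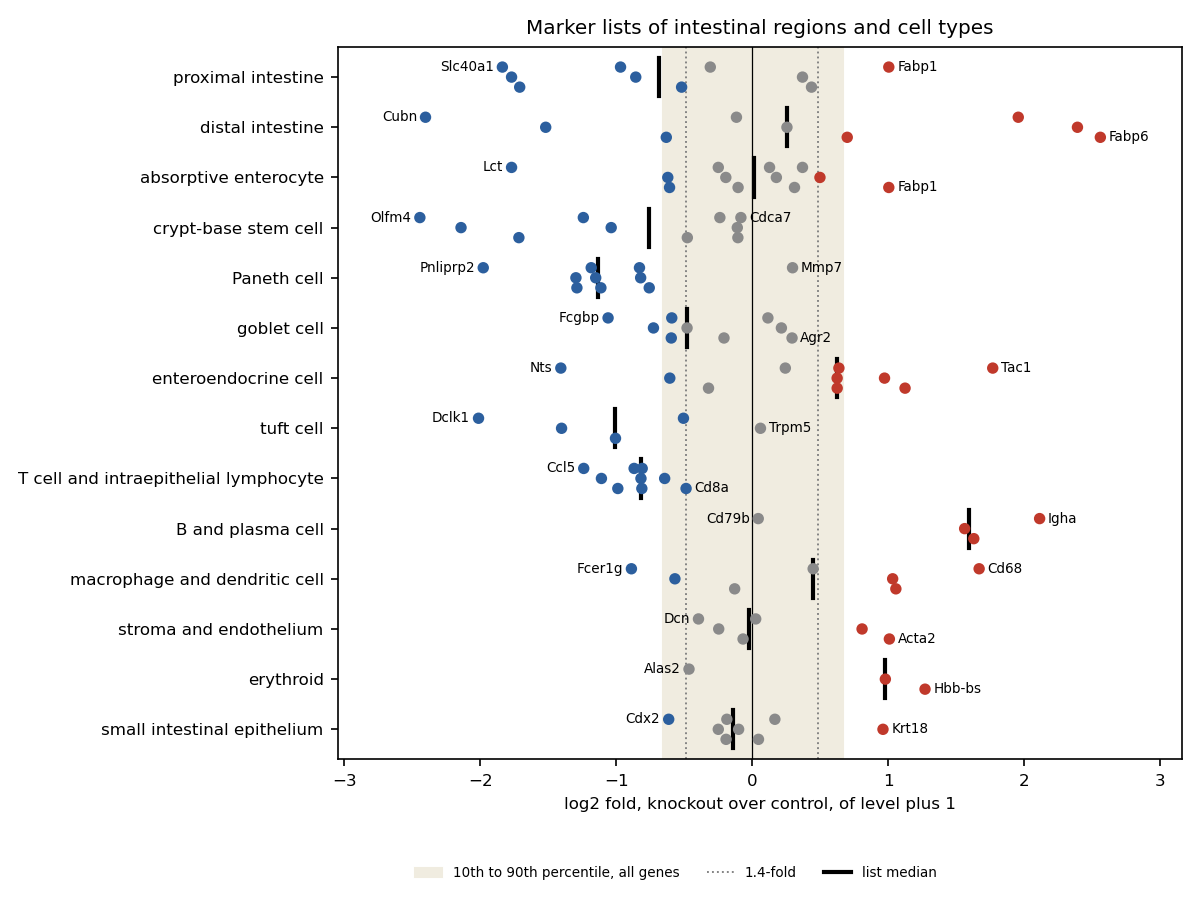
Log2 fold of level plus 1, knockout over control, for markers of intestinal regions and cell types, 1 point per gene; red points are higher by 1.4-fold, blue points lower, grey points between, black bars the list medians and the band the 10th to 90th percentile of all genes. As deposited, the 9 T cell markers and 9 of 10 Paneth cell markers are lower, while distal markers spread from Cubn, lower, to Fabp6, higher.

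Whether the levels are per length is not stated. With the included genes found in the annotation sorted by their longest transcript into 5 groups, the median control level from the shortest group to the longest was 9.64, 13.3, 11.1, 9.42 and 7.29. Of the 47 genes, 13 share exon positions with another gene, 5 of the 17 called ones among them.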

How the data were processed

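RNA from 2 samples, 1 per group by the genotype label, was sequenced on an Illumina HiSeq instrument, per the labels' protocols. The submitters' processing notes name HISAT2, StringTie and mm10 but give no versions or roles. The deposited table holds 1 signal value per gene and sample, a level of expression in an unstated unit. No deposited value was below 1, and 1118 control and 1218 knockout values had more than 6 significant digits, but none did after 1 was subtracted, so 1 was removed. The deposited fold, a ratio computed by the authors, equals the knockout value over the control value within a relative 1.22e-07. Columns were matched to samples by animal number.

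With 1 sample per group no test was run; the design had planned none. Log2 folds used a pseudocount of 1, a minimum level of 1 in either sample and a 1.4-fold cutoff (Python 3.11.15, pandas 2.3.3). The calling step was run on simulated levels without noise, which checks the code and not the calls between 2 libraries. Members and lists were chosen with earlier results of these data known. Some genes are not reported here by name, though counts, sums and medians include them. Otherwise, named genes are all called members, the most abundant uncalled member of each family, and up to 2 genes per direction of each list described. Other members are given by their levels, and other genes named after their values were seen are marked. Positions come from GENCODE M21 and promoters from RefSeq GRCm38.p6; 34 of 47 members had a promoter entry. Alternatives were pseudocount, level minimum, cutoff and library scaling.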

Additional observations from a re-analysis of the deposited data

How the results depend on the processing

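No paired analysis was possible because each group holds 1 sample, and for the same reason no replicate could be left out. Median scaling and the removal of the level filter left the members at 10 higher and 7 lower. A pseudocount of 0.1 added Slc12a2 (2 Slc12 genes lower) and Slc8b1 (1 Slc8 gene higher), both near the cutoff. A minimum level of 5 removed Slc39a6 (1 Slc39 gene higher) and Slc34a3 (0 phosphate genes lower) and left 1341 of all genes higher and 1284 lower; fewer genes enter by construction. Scaling to equal totals that leave out mitochondrially encoded transcripts and the top 20 genes moved the median log2 fold of all genes to 0.099 and of the members to 0.10, and left 0 Slc12 genes lower. Under that scaling 2492 of all genes were higher and 1552 lower, against 1936 and 1985 as deposited, and the members were 10 higher and 5 lower. At 2-fold, 546 genes were higher and 520 lower, members fell to 2 and 1, the Slc39 family had 0 higher and 1 lower, and the Slc30, Slc9, Slc26, Slc12 and phosphate groups had 0 in each direction; Slc4 had 2 higher and 0 lower. Among called members, log2 folds kept their sign under each alternative that included them; Slc12a7, Slc26a11, Slc30a4, Slc30a5, Slc39a4 and Slc39a11, all within the cutoff, were among those that turned from below to above 0 under scaling by totals. Without the adaptor rows, or with the Slc26a6 rows summed, 2 alternatives chosen after seeing the data, the counts stayed at 10 and 7. Depth is unknown, so counting error at low levels could not be given.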
